A study of Mus musculus with 8 samples.

Results

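The AP-1 genes examined here were Fos, Fosb and Fosl2 of the Fos family and Jun, Junb and Jund of the Jun family. They were chosen by name, with earlier results of these data known, as 6 of the 24498 genes of the deposited table. All 6 were among the 12681 genes tested. AP-1 is a transcription factor made of a pair of basic leucine zipper (bZIP) proteins. Fos proteins bind DNA only after pairing with a Jun protein, whereas Jun proteins can also pair with each other. In hippocampal neurons, Fos, Fosb and Junb are immediate early genes, whose transcription follows synaptic activity within minutes through factors already present in the cell, such as CREB and SRF, and Fos mRNA is widely used as a mark of recently active neurons.

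The animals were C57BL/6J males of 10 to 12 weeks, and polyadenylated RNA was sequenced from their dorsal hippocampus, into which an adeno-associated virus (AAV2/9) had been injected 3 weeks earlier. The 4 groups were knockdown vector with training, control vector with training, knockdown vector in the home cage and control vector in the home cage, with 2 libraries each. The knockdown vector (AAV2/9.U6.shACSS2.CMV.EGFP) carried a short hairpin RNA against Acss2, which turns acetate into acetyl-CoA, beside EGFP; the control vector (AAV2/9.CMV.EGFP.polyA) carried EGFP and no hairpin, so the vectors differed in the presence of any hairpin as well as in its target. Training was spatial object exploration: the mice met 3 objects during 3 trials of 6 min, with 3 min between trials. Tissue was taken 30 min after training. All groups had the injection, EGFP, 3 days of handling and the same genetic background, and the label WT denotes the control vector. The libraries of a group are called A and B, in the order of the number that ends their column name, which is not the replicate number of the labels. How many mice stand behind each library is not stated, so p-values reflect library-to-library spread alone, and some of it may be technical.

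Depth was uneven: 6 libraries held 6537749 to 9863728 reads in genes, trained knockdown B held 1484318 and untrained knockdown B held 272456. In normalized counts, 1 read equals 2.88 in trained knockdown B, 15.6 in untrained knockdown B and 0.444 to 0.659 in the other libraries. The targeted gene Acss2 had 25.6 and 57.7 normalized counts in trained knockdown libraries, 87.4 and 67.5 in trained control libraries, 25.0 and 15.6 in untrained knockdown libraries and 58.2 and 82.0 in untrained control libraries. The value of 15.6 was a single read in untrained knockdown B, and that of 57.7 in trained knockdown B lay just below the lowest control value. None of the 7 neuron markers (among them Snap25, Camk2a and Slc17a7) was at 0 in any library.

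Fos, which encodes a partner of Jun proteins (GRCm38, chromosome 12, 85473890 to 85477273, plus strand), had its lowest values in untrained control mice. Its normalized read count was 139 and 107 in trained knockdown libraries A and B, 131 and 103 in trained control A and B, 87.7 and 140.0 in untrained knockdown A and B, and 37.8 and 15.5 in untrained control A and B, an order kept below. The 6 other libraries did not overlap with the untrained control pair, and among these 6 the groups overlapped. The group means were 123 ± 22.6 (knockdown, trained), 117 ± 19.4 (control, trained), 114 ± 37.0 (knockdown, untrained) and 26.7 ± 15.8 (control, untrained; SD, n = 2 each). Behind the value of 140.0 stood 9 reads in untrained knockdown B, with a 95% counting interval of 64.0 to 265.7 normalized counts, whose lower bound still lay above the upper bound of 48.2 in untrained control A. Such intervals cover counting error only, since no molecular identifiers are described for these reads.

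Fosb (chromosome 7, 19302696 to 19310051, minus strand) encodes a full-length protein and, by alternative splicing, the shorter and more stable ΔFosB; the gene counts do not separate these forms. Fosb had 178 and 98.1 normalized counts in trained knockdown libraries, 117 and 134 in trained control libraries, 76.5 and 77.8 in untrained knockdown libraries and 43.6 and 36.4 in untrained control libraries. Every trained library lay above every untrained one, and every untrained knockdown library above both untrained controls. The value of 77.8 in untrained knockdown B was 5 reads, with an interval of 25.2 to 181, so its place between the groups is not resolved at this depth.

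Junb, which pairs with Fos proteins and often activates transcription less strongly than Jun (chromosome 8, 84974484 to 84978718, minus strand), had 171 and 127 normalized counts in trained knockdown libraries, 142 and 126 in trained control libraries, 134 and 77.8 in untrained knockdown libraries and 91.3 and 54.1 in untrained control libraries. The trained and untrained control libraries did not overlap, whereas of the untrained knockdown pair 1 value lay among the trained control and 1 among the untrained control values. The latter, 77.8 in untrained knockdown B, was 5 reads with a counting interval of 25.2 to 181. Its place among the groups is therefore not resolved. Fosl2, which encodes Fra-2 and is usually induced later than Fos (chromosome 5, 32135801 to 32157842, plus strand), had 166 and 109.6 in trained knockdown, 146 and 175 in trained control, 165 and 124 in untrained knockdown and 104 and 106 in untrained control libraries. Both untrained control values were the lowest of the 8, with a highest to lowest ratio of 1.69 over all libraries, against 9.02 for Fos, 4.88 for Fosb and 3.17 for Junb. The Fosl2 value of 109.6 in trained knockdown B was 38 reads (interval 77.6 to 150). That of 124 in untrained knockdown B was 8 reads (53.7 to 245), so this Fosl2 order is not resolved.

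Jun and Jund showed no such order. Jun, the founding member of the family (chromosome 4, 95049034 to 95052222, minus strand), had 947 and 537 normalized counts in trained knockdown, 423 and 681 in trained control, 732 and 544 in untrained knockdown and 736 and 509.6 in untrained control libraries. Libraries of the same group differed as much as groups did, and the 4 groups overlapped. Jund, generally regarded as a steadily expressed member (chromosome 8, 70698949 to 70700616, plus strand), had 216 and 144 in trained knockdown, 265.8 and 185 in trained control, 161 and 171 in untrained knockdown and 162 and 194 in untrained control libraries. Its trained control values lay above both untrained knockdown values, and every other pair of groups overlapped. Annotated genes of the other strand overlap Jun (Junos), Junb (Prdx2) and Jund (Gm11175), and the strand setting of the authors' counting is not given in the sources used here, so their reads cannot be told apart. Fosl1, the remaining Fos relative, was counted with the bZIP relatives below: it had between 0 and 17 reads per library.

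**Figure D1:**
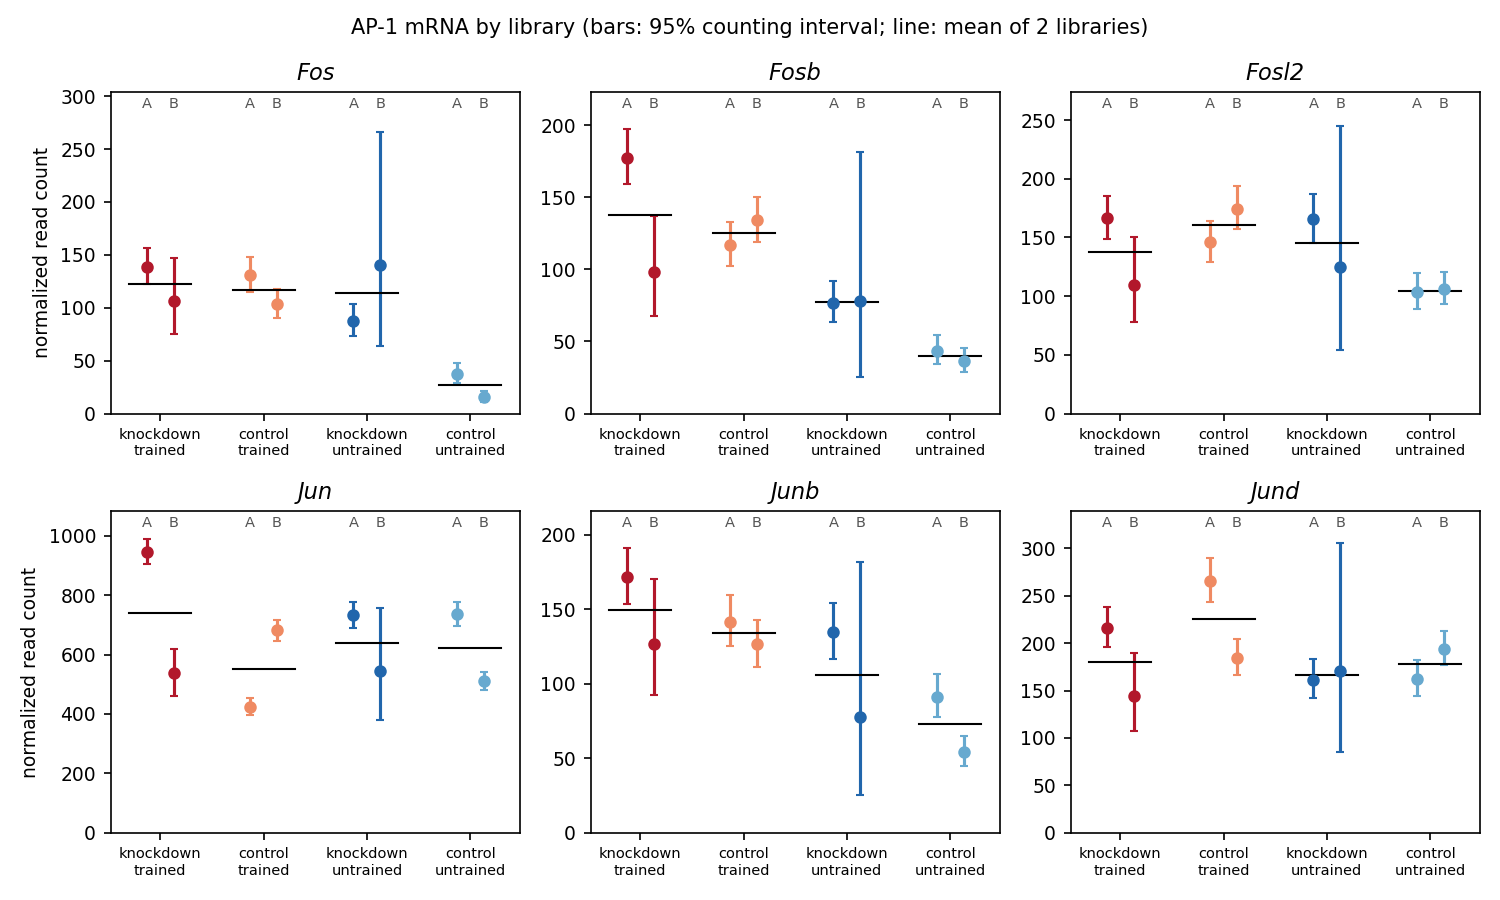
Normalized read count (vertical axis, starting at 0) of each AP-1 gene in every library, by group along the horizontal axis with the library letter above; points are libraries, bars their 95% counting interval and black lines the mean of 2 libraries. For Fos the untrained control libraries (37.8 and 15.5) lie below the 6 others, while for Jun every pair of groups overlaps and for Jund the trained and untrained pairs of each vector do; untrained knockdown B has the widest bars.

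Levels of different genes were compared per kilobase of exon (GENCODE M21 basic set). Averaged over the 8 libraries, Jun stood at 200.3 ± 52.6 normalized counts per kilobase, Jund at 112 ± 23.2, Junb at 63.8 ± 21.1, Fos at 45.1 ± 22.0, Fosb at 25.1 ± 12.5 and Fosl2 at 21.0 ± 4.53 (SD, n = 8). Neighbours in this order from Junb down differed by less than the larger of their SDs. The place of Jund depended on the annotation, since RefSeq gives it 2878 bases, against 1668 in GENCODE, which puts it at 65.2 ± 13.4 per kilobase, next to Junb. In untrained control libraries Fos averaged 12.6 ± 7.47 and Fosb 10.6 ± 1.36 per kilobase (SD, n = 2), the 2 lowest of the 6 genes, with Fosl2 at 16.0 ± 0.27. In trained control libraries Fos averaged 55.5 ± 9.22 and lay above Fosb (33.2 ± 3.20) and Fosl2 (24.5 ± 3.11).

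Training in control-vector mice asks what object exploration does to hippocampal RNA 30 min later. The largest AP-1 differences were those of Fos, at 2.21 on the log2(normalized read count + 1) scale (SE 0.43, 95% interval 1.23 to 3.19), and Fosb, at 1.63 (SE 0.33, interval 0.88 to 2.37), followed by Junb at 0.92 (SE 0.36, interval 0.11 to 1.73) and Fosl2 at 0.60 (SE 0.28, interval -0.04 to 1.25). Jund differed by 0.32 (SE 0.28) and Jun by -0.19 (SE 0.34), and both intervals included 0. By the limma fit over all genes, 0 of the 6 passed a Benjamini-Hochberg adjusted p of 0.05 (adjusted p = 1.00 for each), where 0% of tested genes passed; at an unadjusted p under 0.05 there were 3 of the 6 (Fos, Fosb and Junb) and 181 of the 12681 genes. edgeR called 0 members and 0% of genes (adjusted p = 0.823 for Fos and Fosb). DESeq2 called Fos (2.15, adjusted p = 0.0146) and 0.0315% of genes. Both trained libraries lay above both untrained ones for 4 of the 6 (Fos, Fosb, Fosl2 and Junb), against 14.5% of tested genes. The share of genes with a larger difference was 0.0473% for Fos, 0.308% for Fosb, 1.80% for Junb, 4.78% for Fosl2, 14.1% for Jund and 76.9% for Jun. The median over the 6 was 0.76, beside 0.01 over all tested genes. The smallest p that an exact two-sided permutation test allows with 2 libraries a side is 0.333. Without untrained control B, which held the lowest Fos value, the Fos difference was 1.60, and without untrained control A it was 2.83; for Junb these were 0.55 and 1.29.

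The promoters of Fos, Fosb and Junb, the 3 members with the largest training differences in control-vector mice, are shown beside that of Jun, which has the highest level and no such difference. Each run is 200 bases long, from 170 before the RefSeq start to 30 after it (GRCm38.p6), at chr12:85473720-85473919 (plus strand, Fos), chr7:19310016-19310215 (minus, Fosb), chr8:84978719-84978918 (minus, Junb) and chr4:95052193-95052392 (minus, Jun). Capitals mark TGACG (the core of the CREB site), TGACNTCA (a full site with any base in the middle) and TATAAA.
Fos: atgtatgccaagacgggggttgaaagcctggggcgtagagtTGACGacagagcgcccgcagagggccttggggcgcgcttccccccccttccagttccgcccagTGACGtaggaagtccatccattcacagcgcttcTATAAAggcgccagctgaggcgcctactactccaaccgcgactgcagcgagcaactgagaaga
Fosb: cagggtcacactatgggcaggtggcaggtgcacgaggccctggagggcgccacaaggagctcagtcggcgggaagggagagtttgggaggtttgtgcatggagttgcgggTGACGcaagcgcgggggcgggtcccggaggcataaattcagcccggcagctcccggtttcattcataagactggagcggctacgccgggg
Junb: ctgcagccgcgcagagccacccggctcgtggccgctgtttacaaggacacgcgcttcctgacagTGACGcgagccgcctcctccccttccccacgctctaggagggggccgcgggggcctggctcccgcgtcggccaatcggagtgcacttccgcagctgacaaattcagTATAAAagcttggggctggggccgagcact
Jun: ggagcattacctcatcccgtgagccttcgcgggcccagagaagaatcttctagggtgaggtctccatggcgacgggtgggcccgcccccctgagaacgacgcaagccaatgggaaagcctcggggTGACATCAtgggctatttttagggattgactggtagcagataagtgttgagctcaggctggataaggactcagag
Searched on both strands in the whole window of 250 bases before to 50 after the start, TGACG was present in Fos, at -129 and -66, in Fosb, at -60, and in Junb, at -106, counted from the start, and absent from the windows of Fosl2, Jun and Jund. It was present in 20.8% of 32851 mouse promoter windows of this length. Jun held TGACATCA at -45, a match to TGACNTCA, which 8.83% of windows had; TGACNTCA includes TGACGTCA (1.79% of windows), which contains TGACG and which no member had. TATAAA was found in Fos at -33 and in Junb at its RefSeq start (13.6% of windows); the GENCODE start of Junb lies 30 bases downstream of the RefSeq one, and the match lies before it. The CArG box, to which SRF binds (1.63% of windows), and the AP-1 site in the form TGANTCA (7.81%) were in none of the 6 windows. The longer TGACATCA of Jun does not match that form, so its absence is not that of every AP-1-like site. These are matches of letters in short windows, and binding was not measured. Sites more than 250 bases before the start were not searched, so an absence holds for the window only. GENCODE and RefSeq give the same start for Fos and Jun, and starts 6 bases apart for Fosb, 30 for Junb, 671 for Fosl2 and 1210 for Jund, so the windows of the last 2 may not be the ones in use in this tissue.

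Training in knockdown-vector mice asks the same question with the Acss2 hairpin present. Fos differed by 0.13 (SE 0.43, interval -0.84 to 1.11), with trained values of 139 and 107 against untrained values of 87.7 and 140.0, which overlapped. Fosb differed by 0.77 (SE 0.33, interval 0.02 to 1.51), and Junb by 0.52 (SE 0.36, interval -0.29 to 1.34). Leaving out 1 library put Fosb between 0.34 (without trained knockdown A) and 1.19 (without trained knockdown B), and Junb between 0.13 (without untrained knockdown B) and 0.92 (without untrained knockdown A). Jun (0.17), Jund (0.09) and Fosl2 (-0.09) had intervals on both sides of 0. By limma 0 of the 6 passed (adjusted p = 0.802 for Fosb and 0.965 for Fos), where 0% of genes passed; 1 of the 6 (Fosb) and 568 of all genes were at an unadjusted p under 0.05, and edgeR and DESeq2 each called 0 members and 0% of genes. Trained libraries lay above untrained ones for 1 of the 6 (Fosb), against 16.4% of tested genes. The median over the 6 was 0.15, beside 0.04 over all genes. Both shallow libraries entered this comparison, 1 on each side. Without untrained knockdown B the Fos difference was 0.47, and without untrained knockdown A it was -0.20.

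The vectors were next compared at rest. In untrained mice, Fos had 87.7 and 140.0 normalized counts with the knockdown vector, against 37.8 and 15.5 with the control vector, a log2 difference of 2.14 (SE 0.43, interval 1.16 to 3.12). Fosb differed by 0.94 (SE 0.33, interval 0.19 to 1.68), Junb by 0.53 (SE 0.36, interval -0.28 to 1.35) and Fosl2 by 0.45 (SE 0.28, interval -0.19 to 1.09), while Jun (0.04) and Jund (-0.09) were near 0. Leaving out untrained knockdown A put Junb at 0.14 and Fosl2 at 0.25, and leaving out untrained knockdown B put them at 0.93 and 0.65. By limma 0 of the 6 passed (adjusted p = 0.461 for Fos), where 0% of genes passed; 2 of the 6 (Fos and Fosb) and 571 of all genes were at an unadjusted p under 0.05. edgeR called 0 members (adjusted p = 0.146 for Fos) and 0.181% of genes, and DESeq2 called Fos (1.96, adjusted p = 0.0294) and 0.434% of genes. Knockdown libraries lay above control libraries for 3 of the 6 (Fos, Fosb and Fosl2), against 14.4% of genes. For Fosb and Fosl2 untrained knockdown B had 5 and 8 reads, with counting intervals that reached below the control values. A larger difference than that of Fos was found for 0.710% of genes. Without untrained knockdown B, Fos differed by 1.81 with untrained knockdown A alone (133 reads, 73.4 to 104), and limma did not call it (adjusted p = 0.902). Without untrained knockdown A limma called it (2.48, adjusted p = 0.0114), with untrained knockdown B as the lone knockdown library and its spread taken from the other groups; that fit called 10.1% of all tested genes. Without untrained control B the Fos difference was 1.53, and without untrained control A it was 2.76. This comparison and the training response in control-vector mice share the untrained control libraries, so their Fos differences are not independent.

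In trained mice the vectors overlapped for all 6 genes. Both knockdown libraries lay above both control libraries for 0 of the 6, against 14.4% of tested genes. The share of genes with both knockdown libraries below was not computed. Fos had 139 and 107 normalized counts with the knockdown vector and 131 and 103 with the control vector, a difference of 0.07 (SE 0.43, interval -0.91 to 1.04). Fosb differed by 0.08, Junb by 0.14, Jun by 0.41 (SE 0.34), Fosl2 by -0.24 and Jund by -0.32, and every interval included 0. By limma 0 of the 6 passed (adjusted p = 1.00 for each), where 0.00789% of genes passed; none of the 6 and 299 of all genes were at an unadjusted p under 0.05. edgeR and DESeq2 called 0 members, with 0.0315% and 0.26% of genes called.

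**Figure D2:**
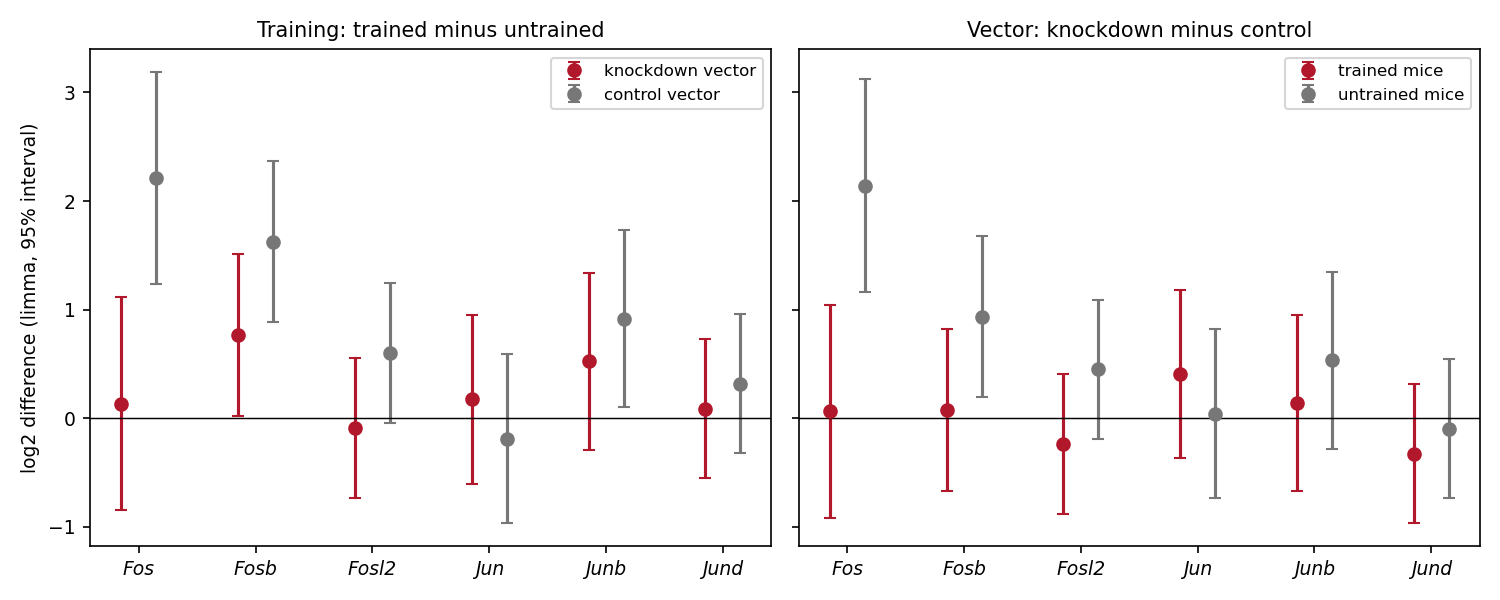
Log2 difference (vertical axis) of each AP-1 gene (horizontal axis) for training, with the knockdown vector in red and the control vector in grey, and for the vector, in trained mice in red and untrained mice in grey; points are limma estimates and bars their 95% intervals. The Fos intervals lie above 0 for training with the control vector (2.21) and for the vector in untrained mice (2.14), and include 0 for training with the knockdown vector (0.13) and for the vector in trained mice (0.07).

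The difference between the training responses was tested as an interaction. For Fos it was -2.08 (SE 0.61, interval -3.46 to -0.69), that is, the response was smaller with the knockdown vector, and it did not pass over all genes (limma adjusted p = 1.00; unadjusted p = 0.00784). Fosb stood at -0.86 (SE 0.47), Fosl2 at -0.69 (SE 0.40), Junb at -0.39 (SE 0.51), Jund at -0.23 (SE 0.40) and Jun at 0.36 (SE 0.49), all with intervals that included 0. None of the 6 passed with limma, edgeR or DESeq2, and each called 0% of genes; 1 of the 6 (Fos) and 112 of all genes were at an unadjusted p under 0.05 with limma. The Fos interaction ranged from -2.69 (without untrained control A) to -1.46 (without untrained control B) when libraries were left out or settings changed. It equally sets the vector difference in trained mice (0.07) against that in untrained mice (2.14). The untrained control pair, lowest for Fos, is shared with the Fos differences of 2.21 and 2.14. Untrained knockdown B, where Fos had 9 reads, also enters the interaction.

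Averaged over the vectors, training differences were 1.20 for Fosb (SE 0.26, interval 0.62 to 1.77), 1.17 for Fos (SE 0.44), 0.72 for Junb (SE 0.25), 0.26 for Fosl2 (SE 0.22), 0.20 for Jund (SE 0.19) and -0.01 for Jun (SE 0.24). Fosb alone had all 4 trained libraries (98.1 to 178) above all 4 untrained ones (36.4 to 77.8), against 1.65% of tested genes. By limma 0 of the 6 passed (adjusted p = 0.873 for Fos, Fosb and Junb), where 0% of genes passed; 3 of the 6 (Fos, Fosb and Junb) and 616 of all genes were at an unadjusted p under 0.05. edgeR called 0 members and 0% of genes (adjusted p = 0.710 for Fosb), and DESeq2 called Fosb (1.32, adjusted p = 0.00533) and 0.0631% of genes. Limma with a weight per library called 4 of the 6 (Fos, Fosb, Junb and Jund), where it called 21.8% of all genes. Averaged over training, the knockdown difference was 1.10 for Fos (SE 0.44), 0.51 for Fosb (SE 0.26), 0.34 for Junb (SE 0.25), 0.23 for Jun, 0.11 for Fosl2 and -0.21 for Jund. Here 0 of the 6 passed with limma (adjusted p = 0.848 for Fos), edgeR or DESeq2, which called 0.103%, 0.962% and 1.54% of genes; 1 of the 6 (Fos) and 709 of all genes were at an unadjusted p under 0.05 with limma. With a weight per library, limma called 2 of the 6 (Fosb and Junb), where it called 6.47% of genes.

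To set the members against each other without the size factors, reads were counted per 100 Jund reads of the same library, where gene length also cancels between libraries. Fos had 64.1 and 74.0 reads per 100 Jund reads in trained knockdown libraries, 49.2 and 56.0 in trained control libraries, 54.3 and 81.8 in untrained knockdown libraries and 23.3 and 7.99 in untrained control libraries. The untrained control pair was again the lowest, although the exact 95% interval in untrained knockdown B ran from 30.0 to 217 and in untrained control A from 17.5 to 30.6. Fosb had 82.0 and 68.0 in trained knockdown, 44.0 and 72.5 in trained control, 47.4 and 45.5 in untrained knockdown and 26.9 and 18.7 in untrained control libraries. On this scale trained control A (44.0, interval 37.4 to 51.5), which had the highest Jund value, lay just below both untrained knockdown libraries. The intervals of those were 37.6 to 59.3 and 12.4 to 142. The values thus did not keep the separation of all trained from all untrained libraries that Fosb showed in normalized counts. With these overlapping intervals, the order is not resolved. Junb had 79.2 and 88.0 in trained knockdown, 53.3 and 68.4 in trained control, 83.3 and 45.5 in untrained knockdown and 56.3 and 27.9 in untrained control libraries. Trained control A (53.3, interval 45.9 to 61.8) lay below untrained control A (56.3, interval 46.0 to 68.7), with overlapping intervals.

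**Figure D3:**
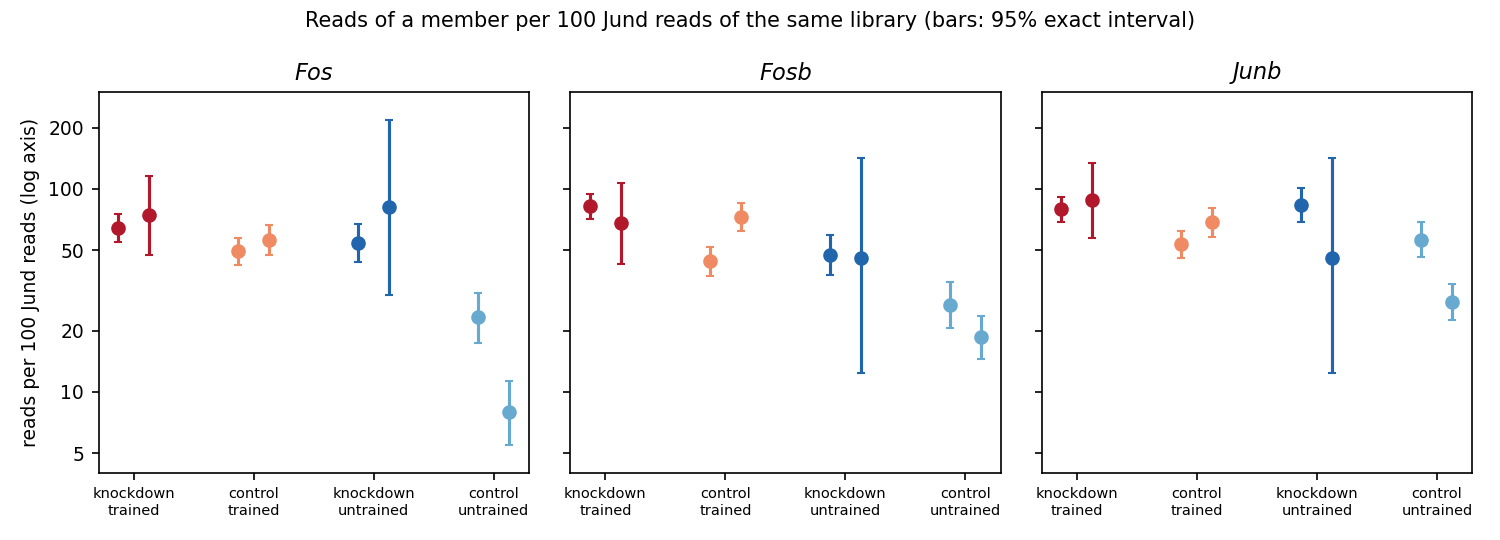
Reads of Fos, Fosb and Junb per 100 Jund reads of the same library (vertical axis, log scale) by group; points are libraries and bars their exact 95% intervals. Untrained control libraries are lowest for Fos (23.3 and 7.99) and Fosb (26.9 and 18.7). For Junb the trained control library at 53.3 and the untrained control library at 56.3 are in the opposite order, with overlapping intervals.

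Markers of other cell types differed between some of these groups. The summed level of 6 oligodendrocyte markers (none at 0 in any library) was 15100 to 25209 in trained knockdown and 18548 to 21270 in trained control libraries. It was 14997 to 16641 in untrained knockdown and 9925 to 14006 in untrained control libraries. Both untrained control libraries thus lay below all others, as for Fos, with untrained control B the lowest. All 6 markers were higher after training in control-vector mice (median 0.68, beside 0.76 for the AP-1 genes). All 6 were also higher with the knockdown vector in untrained mice (median 0.40, beside 0.49). Of all tested genes, 52.1% and 44.8% were higher in these comparisons. Of 4 choroid plexus markers, Folr1 and Aqp1 were at 0 in at least 1 library, and their sum was 252 to 1866, 694 to 58704, 424 to 591 and 221 to 15398 in the groups in the same order, with the high values in trained control A and untrained control A. Sums for 7 microglia markers (none at 0) were 1191 to 1541 in trained knockdown and 1602 to 1714 in untrained knockdown libraries. They were 854 to 894 in trained control and 996 to 1011 in untrained control libraries, so the vectors did not overlap. Of single tested genes, 2.28% had all knockdown libraries above all control libraries. For the averaged vector edgeR called 1 of the 7 (C1qa), beside 0.962% of all genes. DESeq2 called 3 of the 7, C1qa and Csf1r among them, and 1 of 5 astrocyte markers (Gfap), beside 1.54% of all genes. Limma called none of these markers and 0.103% of all genes. For 7 neuron markers (none at 0) the sums were 45234 to 57529, 53409 to 55654, 50410 to 55803 and 56905 to 66626 in the first order, with untrained control B highest. Sums for 5 astrocyte markers (none at 0) were 20069 to 22014 in trained knockdown and 19105 to 20844 in trained control libraries. In untrained mice they were 22710 to 24900 in knockdown and 16949 to 22409 in control libraries, without overlap between the vectors. Both knockdown libraries lay above both control libraries in untrained mice for 14.4% of single genes. Sums for 4 endothelial markers were 336 to 407, 375 to 395, 419 to 435 and 388 to 457 in the first order. Of these markers Ly6c1 was at 0 in at least 1 library. Whether the mixture of cells had a part in the AP-1 values was not tested, and in whole tissue fewer cells of a type and less RNA per cell cannot be told apart.

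Most other immediate early genes had higher values after training. Of 37 tested genes of a list of 40, 33 were higher after training in control-vector mice (median 0.58, beside 0.01 over all genes). In knockdown-vector mice 28 were higher (0.37, beside 0.04). These were 89.2% and 75.7%, beside 52.1% and 54.1% of all genes. With the knockdown vector 26 were higher in untrained mice (0.26, beside -0.05) and 29 in trained mice (0.25, beside -0.00). These were 70.3% and 78.4%, beside 44.8% and 49.3% of all genes. With limma and edgeR 0 passed in these 4 comparisons. DESeq2 called 2 for training in control-vector mice, beside 0.0315% of all genes, and 2 for the vector in untrained mice, beside 0.434%. Arc and Egr2 were the 2 in both comparisons, which share the untrained control libraries. The largest averaged differences belonged to Gadd45b (1.80 for training), the matrix protein gene Cyr61 (1.67) and the activin subunit gene Inhba (1.58), each with 0 reads in untrained knockdown B, where a count of 0 allows up to 46.7 normalized counts by the limit of 3 reads. Egr2, a zinc finger transcription factor, had the largest knockdown difference, 1.72 (SE 0.57, limma adjusted p = 0.697, DESeq2 adjusted p = 0.026): it had 164 and 51.9 normalized counts in trained knockdown, 82.7 and 61.7 in trained control, 68.5 and 109 in untrained knockdown and 11.6 and 7.54 in untrained control libraries, with the untrained control pair far below the rest.

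The bZIP relatives, which can pair with Fos or Jun proteins or bind related sites, had smaller medians. Of 21 listed, 17 were tested, and 0 passed with limma or edgeR in any of the 7 comparisons. For training in control-vector mice the median was 0.15, and 13 were higher (76.5%, beside 52.1% of all genes). In knockdown-vector mice the median was 0.12, and 10 were higher (58.8%, beside 54.1%). Atf3, a stress-responsive partner of Jun proteins, had 30.7 and 23.1 normalized counts in trained knockdown, 6.72 and 14.8 in trained control, 27.0 and 15.6 in untrained knockdown and 5.23 and 5.32 in untrained control libraries. All 4 knockdown values exceeded all 4 control values, which 2.28% of tested genes did, although 15.6 was a single read in untrained knockdown B. Its averaged knockdown difference was 1.55 (SE 0.47), and limma and edgeR did not call it (adjusted p = 0.583 and 0.0522), while DESeq2 did (adjusted p = 0.029). Values for the small Maf gene Maff and for Nfe2l2, a regulator of oxidative stress genes, were 1.01 and 0.55 for the knockdown vector, and that for Maff was 0.55 for training; none of these passed.

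Genes that act upstream of AP-1 differed in direction among themselves. Of 31 kinases and transcription factors, all tested, 10 were higher after training in control-vector mice (32.3%, beside 52.1% of all genes; median -0.07) and 17 in knockdown-vector mice (54.8%, beside 54.1%; median 0.01), and 0 passed with limma, edgeR or DESeq2 in any comparison. The largest values, for Rps6ka2 (1.77 for training and -2.18 for the knockdown vector) and Crem (1.31 and -1.32), stood on genes with 0 reads in untrained knockdown B. Mapk3, which encodes the kinase ERK1, had 217 and 441 normalized counts in trained knockdown, 543 and 316 in trained control, 304 and 279.9 in untrained knockdown and 472 and 468 in untrained control libraries, a knockdown difference of -0.55 (SE 0.24, limma adjusted p = 0.873). Among 17 regulators of AP-1 proteins, such as kinases that set their stability, 11 were higher after training in control-vector mice (64.7%, beside 52.1%; median 0.06). In knockdown-vector mice 7 were higher (41.2%, beside 54.1%; median -0.07), and 0 passed with any of the 3 tools. Txn1, the thioredoxin that helps to keep AP-1 proteins reduced, differed by 0.64 (SE 0.19, limma adjusted p = 0.873) for training. It had 212 and 190.4 normalized counts in trained knockdown, 172 and 231 in trained control, 113 and 124 in untrained knockdown and 111 and 173 in untrained control libraries.

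Of 20 genes reported as AP-1 targets in various cells, 14 were tested. Their median for training was 0.05 in control-vector and 0.09 in knockdown-vector mice. In these, 8 and 9 were higher (57.1% and 64.3%, beside 52.1% and 54.1% of all genes). With limma 0 passed in any comparison. Vim, which encodes the glial intermediate filament vimentin, was called by edgeR and DESeq2 for the knockdown vector averaged over training (1.10, SE 0.29; edgeR adjusted p = 0.0352, DESeq2 adjusted p = 0.00107) and not by limma (adjusted p = 0.421). It had 732 and 291 normalized counts in trained knockdown, 237 and 236 in trained control, 556 and 295 in untrained knockdown and 197 and 148 in untrained control libraries. Cd44 had 51.2 and 8.65 in trained knockdown, 20.7 and 12.0 in trained control, 53.4 and 15.6 in untrained knockdown and 12.8 and 6.65 in untrained control libraries, with high values in trained and untrained knockdown A. Those libraries also held the highest Vim values. The largest averaged training differences on this list, for Gadd45b (1.80), the opioid precursor gene Pdyn (1.12) and the heme oxygenase gene Hmox1 (0.95), were again of genes with 0 reads in untrained knockdown B.

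**Figure D4:**
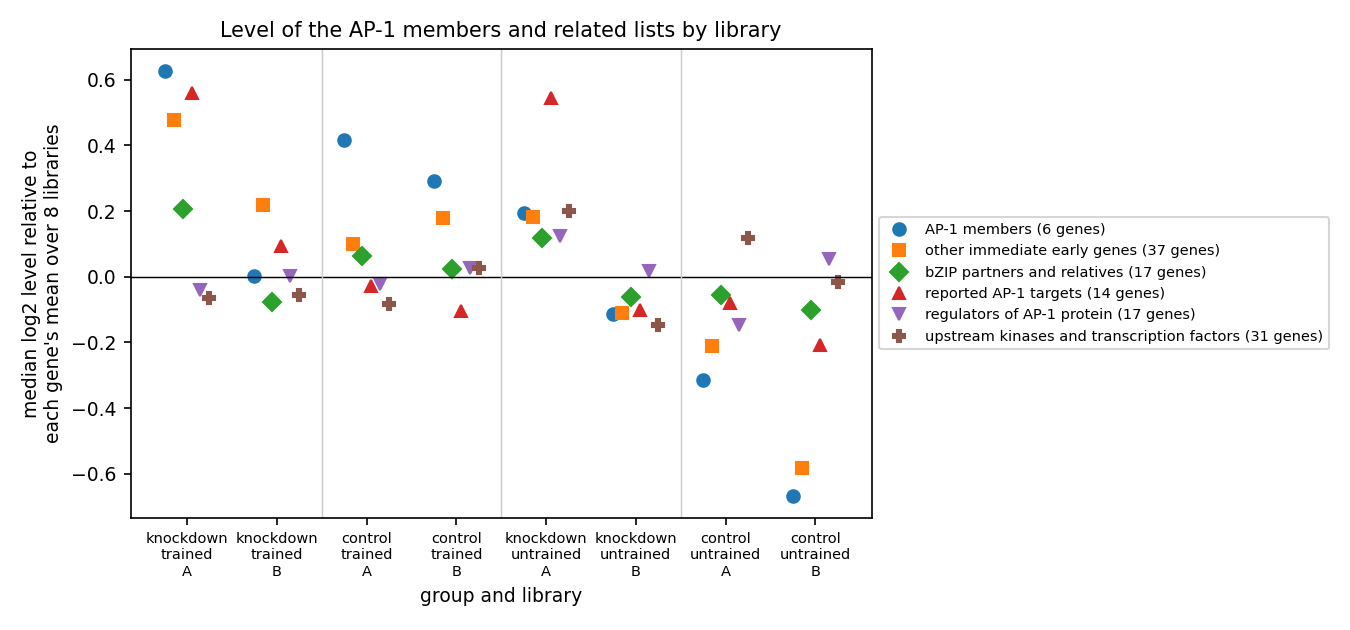
Median log2 level of the AP-1 genes and of 5 related lists in each library (horizontal axis, by group and library letter), relative to each gene's mean over the 8 libraries (vertical axis, log2); a point is the median over the tested genes of a list. The AP-1 genes run from 0.63 in trained knockdown A to -0.67 in untrained control B, the other immediate early genes from 0.48 to -0.58 in the same libraries, and the upstream genes stay between -0.15 and 0.20.

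The likeness of profiles was described by the Pearson coefficient of log2(normalized read count + 1) over the 8 libraries, among genes with a mean of at least 100. It is given without a test, since all genes share the same libraries, the low depth of untrained knockdown B included. Fos was most like Arhgef10 (0.97), Cd9 (0.96) and Arc (0.95), in this order, out of 6989 genes. The rank-based Spearman coefficient of Fos with these genes was 0.79, 0.90 and 0.55. Junb was most like Cers2 (0.97), Sox2ot (0.94) and Egr1 (0.92). Fosb was most like Ttf1 (0.97), Pcf11 (0.96) and Cdc37l1 (0.96), and Fosl2 like Gcc1 (0.93), Pik3r1 (0.90) and Crnkl1 (0.89). Jun was most like Igsf3 (0.97), Myo9b (0.97) and Daglb (0.96), and Jund like Tpm4 (0.89), Dpp7 (0.89) and Bloc1s1 (0.87). Among the members, Fos and Fosb stood at 0.86, Fosb and Junb at 0.86 and Fos and Junb at 0.76. Fos and Jun stood at 0.11 and Jun and Jund at -0.23. By the Spearman coefficient these pairs stood at 0.69, 0.71, 0.43, 0.02 and -0.21 in the same order.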

How the data were processed

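The authors deposited 1 table of normalized signal per gene and library. Per the submitters' processing notes, bcl2fastq 02.14.01.07, STAR 2.3.0, HTSeq 0.6.1, DESeq and bedtools were used with build mm10; neither annotation nor strand setting is named there. Dividing the deposited signal by the smallest value of each library gave whole numbers throughout (100% of values, relative tolerance 1e-06), and these were taken as reads; the 5 summary rows of the counter were left out. Differences were tested in R 4.3.3 by limma 3.58.1 (trended prior) on log2(value + 1), for genes with a mean of at least 10, with all 4 groups sharing 1 spread (4 residual degrees of freedom, 5.13 from the prior) and Benjamini-Hochberg adjustment over 12681 genes. This scale can understate changes of low genes. A count of 0 in untrained knockdown B, where 1 read equals 15.6 normalized counts, can instead enlarge a difference. The averaged comparisons used an additive model. edgeR 4.0.16 (quasi-likelihood) and DESeq2 1.42.0 ran on the recovered reads. The limma script was tested on simulated data. Named genes were the 6 members, the 3 listed genes with the largest averaged training and knockdown differences, and the 3 nearest profiles of each member. Some genes that this rule or the marker lists hold are not reported here by name. Members and lists were chosen with earlier results of these data known. Of 18 listed regulators of AP-1 proteins, 17 were in the table. Gene coordinates and exon lengths are from GENCODE M21 (GRCm38), promoters from RefSeq (GRCm38.p6), with all 6 members matched.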

Additional observations from a re-analysis of the deposited data

How the results depend on the processing

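With 2 libraries a group, 2 of them shallow, the size of a difference is poorly set. No paired analysis was possible because the columns carry library numbers, not the replicate numbers of the labels. Over 18 alternatives, 42 member comparisons gave 756 values, of which 37 changed sign, and the cause was not tested. The fits with edgeR, DESeq2, TMM factors, other pseudocounts or no filter changed no sign.

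The number of members called was 0 in each comparison. DESeq2 called 1 for training in control-vector mice, 1 for the vector in untrained mice and 1 for averaged training. Limma with a weight per library called 4 for averaged training (Fos, Fosb, Junb and Jund), where it called 21.8% of all genes, and 2 for the averaged vector (Fosb and Junb), where it called 6.47%. Leaving out 1 library gave between 0 and 1 for the vector in untrained mice and 0 elsewhere; the 1 was Fos without untrained knockdown A, where 10.1% of all genes were called.

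Without both shallow libraries, Fosl2 stood at 0.0079 for training in knockdown-vector mice and 0.060 for the vector in trained mice, and the Jund interaction at 0.10. Without both B libraries of the control vector, whose column numbers form a higher set, the vector difference was -0.22 for Jun and 0.034 for Jund in untrained mice and -0.10 for Fos in trained mice. With that set as a term, chosen after seeing the data, it was -0.33 for Fos and -0.087 for Junb in trained mice. With a weight per library, Jun stood at 0.21 for averaged training and Jund at 0.022 for the averaged vector.

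Leaving out 1 library gave these ranges where a sign changed. For training in control-vector mice, Jun ran from -0.53 to 0.15. For training in knockdown-vector mice, Fos ran from -0.20 to 0.47, Fosl2 from -0.39 to 0.21, Jun from -0.23 to 0.58 and Jund from -0.20 to 0.38. For the vector in untrained mice, Jun ran from -0.22 to 0.31 and Jund from -0.22 to 0.034. For the vector in trained mice, Fos ran from -0.12 to 0.25, Fosb from -0.35 to 0.50, Fosl2 from -0.54 to 0.060, Jun from -0.0016 to 0.82 and Junb from -0.075 to 0.36. The interaction ran from -0.046 to 0.77 for Jun and from -0.52 to 0.062 for Jund. For averaged training, Jun ran from -0.21 to 0.17, and for the averaged vector, Fosl2 from -0.045 to 0.29.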
